A study of Mus musculus with 12 samples.

Results

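The genes described here encode 6 transcription factors of the STAT family (Stat2, Stat3, Stat4, Stat5a, Stat5b and Stat6) and 3 inhibitors of cytokine receptor signalling from the SOCS family (Socs2, Socs3 and Cish). They were taken by symbol, and all 9 are among the 24465 genes listed in at least 1 of a pair of tables, one for untreated and one for TNF-treated cells. RNA was sequenced from bone marrow-derived macrophages, which are grown in culture from marrow progenitors, of Lyz2cre and of Klf6fl/fl:Lyz2cre mice. TNF, a cytokine of inflammation, was added at 10 ng/ml for 6 h or left out, and each of the 4 groups has 3 libraries. All groups, the Lyz2cre controls included, carry Cre recombinase driven by Lyz2, the lysozyme gene of macrophages and granulocytes, and the second genotype, called Klf6-deleted here, adds floxed Klf6. Klf6 encodes a zinc-finger transcription factor, and the series concerns its role in macrophages during atherosclerosis. Whether a group's libraries stem from different animals or cultures is not stated, so the tests measure the spread between these libraries, which may be technical.

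Cytokine receptors of this pathway hold Janus kinases on their inner side. On binding of a cytokine the kinases phosphorylate the receptor and the STAT proteins that dock on it, and the STATs then pair, enter the nucleus and bind DNA. STAT2 is the partner of IRF9 in the complex that answers type I interferon, STAT3 serves the IL-6 and IL-10 families, STAT4 serves IL-12, STAT5A and STAT5B serve IL-3, GM-CSF and growth hormone, and STAT6 serves IL-4 and IL-13. SOCS3, SOCS2 and CIS (the product of Cish) are induced by STATs and act back on the receptors as brakes. In macrophages STAT3 is known for the anti-inflammatory action of IL-10, and STAT6 for alternative activation.

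Promoter sequences are shown for 3 members (Cish, Socs3 and Stat2) that were higher in untreated Klf6-deleted cells. Their promoters hold words of the kind that STAT dimers or interferon factors bind. Stat4 was also higher and has such a word, and its sequence is not shown. The sequences come from RefSeq (GRCm38.p6) and run 5′ to 3′ on the strand of the gene. They end at the annotated start site, except that the Cish stretch goes on for 20 bases into the transcript. Capitals mark matches to TTCNNNGAA or TTCNNNNGAA, the paired half-sites of STAT binding, and to GAAANNGAAA or its reverse complement, the core of interferon-response elements.
Cish, chr9:107296429-107296678, plus strand: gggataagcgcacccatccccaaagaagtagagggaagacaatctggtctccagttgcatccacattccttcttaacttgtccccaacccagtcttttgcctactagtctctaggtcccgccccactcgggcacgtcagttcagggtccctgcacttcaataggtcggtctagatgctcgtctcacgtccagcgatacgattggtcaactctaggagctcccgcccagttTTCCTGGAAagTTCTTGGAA
Socs3, chr11:117969367-117969616, minus strand: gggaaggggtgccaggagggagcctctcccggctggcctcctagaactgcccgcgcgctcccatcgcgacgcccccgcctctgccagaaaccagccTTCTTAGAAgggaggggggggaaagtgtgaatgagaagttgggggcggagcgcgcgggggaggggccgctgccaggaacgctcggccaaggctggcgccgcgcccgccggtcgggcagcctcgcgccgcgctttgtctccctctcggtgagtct
Stat2, chr10:128270248-128270497, plus strand: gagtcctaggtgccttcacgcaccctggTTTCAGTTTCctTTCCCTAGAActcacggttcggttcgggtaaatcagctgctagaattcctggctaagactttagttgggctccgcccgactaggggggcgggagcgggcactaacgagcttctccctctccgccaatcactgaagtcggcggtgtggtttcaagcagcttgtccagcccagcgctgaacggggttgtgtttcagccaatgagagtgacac
Cish has TTCCTGGAA from base 1 and TTCTTGGAA from base 12 of the transcript, Socs3 has TTCTTAGAA beginning 154 bases before its start, and Stat2 has TTTCAGTTTC beginning 222 bases and TTCCCTAGAA beginning 210 bases before its start. No match overlaps another. Windows of 250 bases before to 50 after a start were found for 8 of the 9 members (11 windows), and none for Socs2. Over all 32851 RefSeq windows, searched on both strands, TTCNNNGAA is held by 8.30%, TTCNNNNGAA by 6.95% and GAAANNGAAA by 3.44%. Among the members TTCNNNGAA is in the windows of Cish and Socs3 alone, TTCNNNNGAA in that of Stat2 alone, and the interferon core in those of Stat2 and Stat4, where it reads GAAAGTGAAA and begins 97 bases before a start. GGGCGG, the GC box bound by Krüppel-like and Sp factors, is in 6 of the 11 member windows, those of 6 members, and in 35.7% of all windows. The consensus of NF-κB, the factor that TNF activates, matched in 1 of the 11 member windows, of Stat5a, and in 5.89% of all windows. These matches describe letters in the windows, and binding was not measured.

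All 9 genes are protein-coding and are listed in both tables by Ensembl identifier. By GENCODE annotation of GRCm38, Stat2 (ENSMUSG00000040033) lies at chr10:128270559-128292849 and Stat6 (ENSMUSG00000002147) at chr10:127642986-127660957, both on the plus strand, and Socs2 (ENSMUSG00000020027) at chr10:95385362-95417180 on the minus strand. Chromosome 11 holds Stat5b (ENSMUSG00000020919, chr11:100780731-100850724, minus), Stat5a (ENSMUSG00000004043, chr11:100859351-100885169, plus) and Stat3 (ENSMUSG00000004040, chr11:100885098-100939540, minus) next to each other, and Socs3 (ENSMUSG00000053113, chr11:117966079-117970047, minus). Stat4 (ENSMUSG00000062939) lies at chr1:51987148-52107189 and Cish (ENSMUSG00000032578) at chr9:107296026-107302784, both on the plus strand.

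Reads assigned to genes numbered 16.9 to 23.4 M per library. Values are normalized read counts, that is reads divided by a size factor for each library, and the untreated and TNF tables were scaled separately. Klf6 itself was at 10055, 9984 and 10315 in untreated Lyz2cre libraries and at 7004, 7405 and 6894 in Klf6-deleted ones, and with TNF at 7622, 7155 and 7564 against 4211, 4133 and 4139.9. It was lower in every Klf6-deleted library (log2 change -0.51 and -0.84, adjusted p = 7.1e-10 and 4.3e-11, limma), but the counts cover the whole gene and the floxed exons are not stated, so the reads that remain do not show how much was deleted. All 10 macrophage markers had reads in every group, with a summed level of 12260 to 12290 CPM (reads scaled to library depth) in untreated Lyz2cre, 7644 to 8106 in untreated Klf6-deleted, 11109 to 11239 in TNF-treated Lyz2cre and 10452 to 10469 in TNF-treated Klf6-deleted libraries. Stromal markers, 18 in number, summed to 239 to 283, 4206 to 4472, 84.1 to 104 and 411 to 485 CPM in the same order, so the untreated Klf6-deleted libraries stand apart. Untreated, endothelial markers summed to 39.8 to 45.1 CPM in Lyz2cre and 94.6 to 104 in Klf6-deleted libraries, B cell markers to 4.70 to 6.51 and 19.0 to 23.9, dendritic cell markers to 154 to 158 and 188 to 192.5, and granulocyte markers to 513 to 569 and 421 to 447, so of these 4 sums all but that of granulocytes were higher in the Klf6-deleted libraries. With TNF the sums in the same order of genotypes were 101.4 to 120 and 71.8 to 76.7 for endothelial, 0.203 to 1.01 and 2.90 to 3.59 for B cell, 511 to 671 and 196 to 230 for dendritic cell and 12.6 to 14.0 and 9.33 to 11.8 for granulocyte markers. Only 1 of the 8 dendritic cell markers was high enough to be tested in either condition (log2 change 0.14 untreated and -1.81 with TNF, limma). That sum is therefore no measure of dendritic cells. Of the 8 endothelial markers, the 5 tested untreated were all called higher, and of the 3 tested with TNF 1 was higher and 2 were lower. T and NK cell markers are given beside Stat4. The part of other cells in the results below was not tested, and in such bulk libraries fewer cells of a type and less RNA per cell cannot be told apart.

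**Figure D1:**
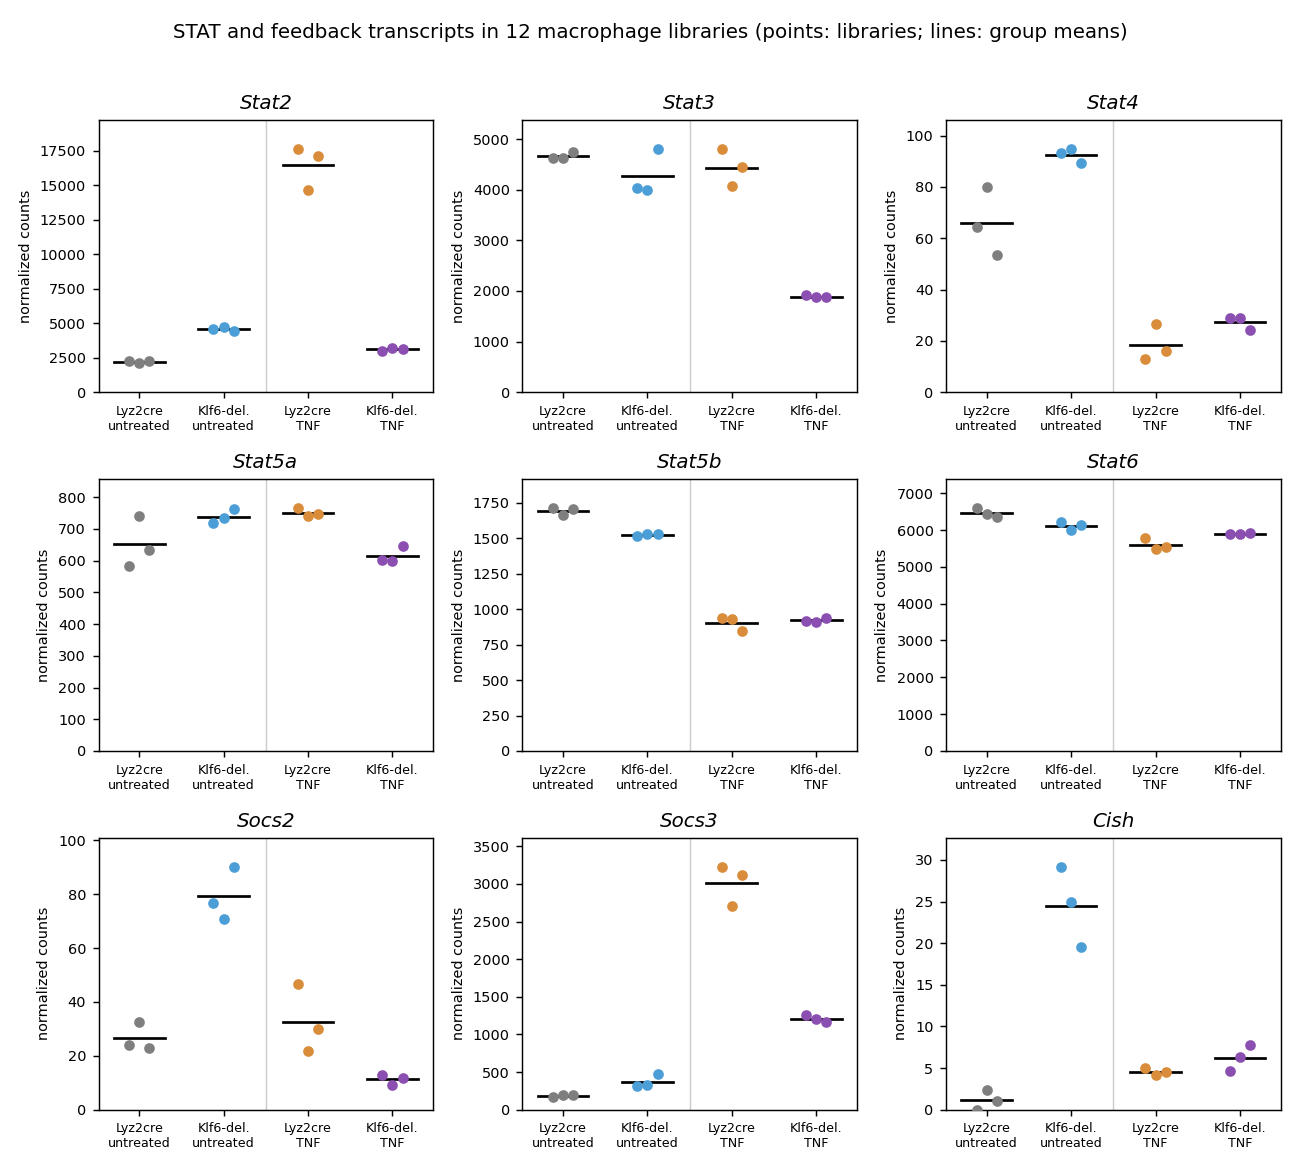
Normalized read counts (vertical axes, linear from 0) of the 9 genes in 12 libraries; points are libraries and lines are group means, and the grey line separates the tables that were scaled apart. Stat2 in TNF-treated Lyz2cre libraries is at 14696 to 17629, above every other group.

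Without TNF, Klf6-deleted macrophages had higher Stat2, Socs2, Socs3 and Cish. Stat4 and Stat5a were also higher, by smaller amounts, and Stat3 and Stat5b were slightly lower. In all, 8 of the 9 members passed the test, 6 higher and 2 lower. Over all 12715 genes tested the share was 56.9%, with 27.6% higher and 29.3% lower. With TNF 5 of the 8 tested members (Stat2, Stat3, Socs3, Socs2 and Stat5a) were lower in Klf6-deleted cells and 0 were higher, where 57.3% of 11717 genes were called, 26.5% higher and 30.8% lower. The 0 stands at an unadjusted p under 0.05 too, while edgeR and scaling by TMM each called Stat6 higher, and scaling to total reads called Stat4, Stat5b and Stat6. A genotype difference that itself differed between the conditions, tested over the 4 groups, was called for 8 of 9 members against 48.9% of 13062 genes. For 6 members (Stat2, Stat3, Stat5a, Socs2, Socs3 and Cish) the difference was more negative with TNF, against 24.9% of genes, and for 2 (Stat5b and Stat6) more positive, against 24.1%. Libraries of the genotypes did not overlap for 7 of 9 members untreated, against 62.3% of genes, and for 6 of 8 with TNF, against 63.2%. Stat2, Socs2, Socs3 and Stat5a, 4 members, were called higher without TNF and lower with it, and Stat3 was called lower in both conditions. Cish untreated and Socs2 with TNF reached the filter on low values only through the genotype in which they were high. For the interaction Cish reached it only through the untreated Klf6-deleted libraries. Such calls add no weight to these counts. The member shares are read against these high backgrounds, and the counts moved when libraries were left out, to as few as 4 members untreated without Klf6-deleted replicate 1 or 2 and to 5 without Lyz2cre replicate 1 or 3.

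Stat2, the interferon STAT, was higher without and lower with TNF in Klf6-deleted cells. In untreated cells it was at 2228, 2111 and 2249.9 normalized counts in Lyz2cre libraries and at 4618, 4706 and 4467 in Klf6-deleted ones. The ranges do not overlap, and Stat2 was 2.09-fold higher in Klf6-deleted cells (log2 change 1.07, SE 0.0401, adjusted p = 1.2e-13, limma on log2(value + 1), as for all genes below). With TNF it was at 17629, 14696 and 17137 in Lyz2cre and at 3009, 3208 and 3139.7 in Klf6-deleted libraries. Here every Klf6-deleted library is far below every Lyz2cre library, 5.27-fold lower (log2 change -2.40, SE 0.0578, adjusted p = 4.7e-15). The ratio of TNF-treated to untreated group means was 7.51 in Lyz2cre and 0.678 in Klf6-deleted cells, a description across tables with no test. The corresponding log2 ratio of the median gene was -0.355 in Lyz2cre and -0.295 in Klf6-deleted cells. The interaction was -3.46 on the log2 scale (SE 0.0758, adjusted p = 2.0e-17), and 208 of the 13062 genes had a larger one in either direction.

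Stat3 was at 4624, 4619 and 4748 in untreated Lyz2cre and at 4042, 3996 and 4798 in untreated Klf6-deleted libraries. Klf6-deleted replicate 3 lies above all 3 Lyz2cre libraries while the other 2 lie below them, and the small difference (log2 change -0.13, SE 0.0537, adjusted p = 0.0485) was lost under 11 of 14 alternatives and was 0.0035 when libraries were scaled to total reads. With TNF Stat3 was at 4802, 4065 and 4451 in Lyz2cre and at 1917.5, 1876.5 and 1872 in Klf6-deleted libraries. These do not overlap, and Stat3 was 2.35-fold lower in Klf6-deleted cells (log2 change -1.23, SE 0.0558, adjusted p = 1.4e-11). The TNF to untreated ratio was 0.952 in Lyz2cre cells, whose ranges overlap, but 1.19 with ranges apart when scaled by TMM, and it was 0.441 in Klf6-deleted cells. The interaction was -1.10 (SE 0.0867, adjusted p = 2.2e-09).

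Stat4, the IL-12 STAT best known from T and NK cells, was scarce. Untreated it was at 64.6, 79.9 and 53.6 in Lyz2cre and at 93.4, 94.7 and 89.3 in Klf6-deleted libraries, and with TNF at 12.9, 26.8 and 16.1 against 29.0, 29.1 and 24.3. The untreated ranges do not overlap (log2 change 0.50, SE 0.182, adjusted p = 0.0265), while with TNF a Lyz2cre library lies within the range of the Klf6-deleted ones and the difference did not pass the test (0.60, SE 0.337, adjusted p = 0.143). The untreated call rests on 317 against 174 reads, a ratio of 1.41 (exact 95% interval for counting error 1.17 to 1.70), and was lost without Lyz2cre replicate 1 or 3 or without Klf6-deleted replicate 1 or 2 (adjusted p = 0.0518, 0.112, 0.0655 and 0.0761). With TNF the ratio was 1.48 (1.04 to 2.12, from 88 and 53 reads), and the call was made without Lyz2cre replicate 2 (log2 change 0.88, adjusted p = 0.0390). In that fit Stat4 passed the filter only through the Klf6-deleted libraries (1.48 to 1.77 CPM, against 0.623 and 0.768). That call therefore adds no weight. The interaction was 0.10 (SE 0.366, adjusted p = 0.841), so no difference between the conditions was detectable. T and NK cell markers summed to 1.64 to 2.96 CPM in untreated Lyz2cre and 4.23 to 5.04 in untreated Klf6-deleted libraries, with 0 of 18 over 1 CPM in either and Gzma at 0 reads in both, and to 5.18 to 6.75 and 4.19 to 5.47 with TNF. Their part in the Stat4 values was not tested.

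Stat5a and Stat5b are close paralogs with near-identical proteins, lie head to head on chromosome 11 with 8626 bp between them, and reads could be split between them by the counting, so their values are uncertain to that extent. Stat5a was at 583, 742 and 632 in untreated Lyz2cre and at 719, 734 and 762 in untreated Klf6-deleted libraries. Lyz2cre replicate 2 lies within the Klf6-deleted range, and the difference (log2 change 0.18, SE 0.0762, adjusted p = 0.0477) was lost under 7 of 14 alternatives. With TNF Stat5a was at 766, 740.2 and 746 in Lyz2cre and at 601, 599 and 646 in Klf6-deleted libraries. These do not overlap (log2 change -0.29, SE 0.0670, adjusted p = 0.00163), but scaled to total reads the difference was 0.039 (adjusted p = 0.610), where the median of all genes was 0.32. The interaction of Stat5a was -0.47 (SE 0.105, adjusted p = 0.000979).

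Stat5b was at 1715, 1662 and 1706 in untreated Lyz2cre and at 1514, 1528 and 1528 in untreated Klf6-deleted libraries. Every Klf6-deleted library was lower (log2 change -0.15, SE 0.0431, adjusted p = 0.00538), although scaled to total reads the change was -0.021 (adjusted p = 0.698), with the median of all genes at 0.12. With TNF it was at 937, 935 and 844 in Lyz2cre and at 916, 913 and 936 in Klf6-deleted libraries. These ranges overlap and no difference was detected (log2 change 0.03, SE 0.0632, adjusted p = 0.726); scaled to total reads it was 0.35 (adjusted p = 0.000141), close to the median of all genes. TNF-treated cells had 0.534 times the untreated mean in Lyz2cre and 0.605 times in Klf6-deleted cells. The interaction was 0.18 (SE 0.0704, adjusted p = 0.0399) and was lost under 14 of 20 alternatives, with the replicate number as a block among them (adjusted p = 0.0684). Stat5a made up 27.8% ± 2.81 of the Stat5 reads in untreated Lyz2cre, 32.6% ± 0.562 in untreated Klf6-deleted, 45.4% ± 1.41 in TNF-treated Lyz2cre and 40.0% ± 0.721 in TNF-treated Klf6-deleted cells (SD, n = 3), a share that no scaling of libraries affects.

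Stat6, the factor of IL-4 and IL-13, differed little between the genotypes. Untreated it was at 6598, 6444 and 6341 in Lyz2cre and at 6206, 5998 and 6147 in Klf6-deleted libraries. With TNF it was at 5788, 5477 and 5529 in Lyz2cre and at 5887, 5893 and 5932 in Klf6-deleted libraries. The genotypes do not overlap in either condition, yet neither difference passed the test (log2 change -0.08, SE 0.0344, adjusted p = 0.0595; with TNF 0.08, SE 0.0407, adjusted p = 0.117), and the sign of the untreated one turned when libraries were scaled to total reads (0.054, adjusted p = 0.174). With TNF Stat6 was called higher by edgeR (0.11, adjusted p = 0.0338) and when scaled by TMM (0.11, adjusted p = 0.0257) or to total reads (0.40, adjusted p = 1.39e-07). The interaction of 0.16 (SE 0.0489, adjusted p = 0.0125) was called under every alternative but edgeR (adjusted p = 0.0692). Stat6 shares 40 bp with Nab2 on the other strand, and Stat3 and Stat5a share 72 bp on opposite strands at their 3′ ends; whether the counting used strand is not given in the sources used here.

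**Figure D2:**
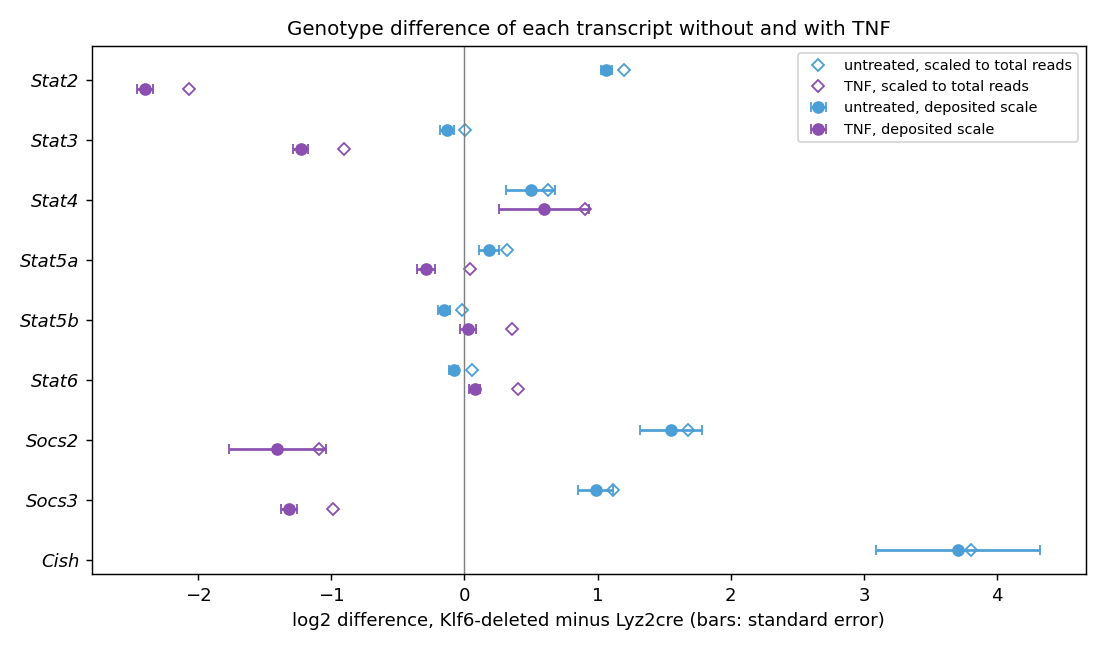
Log2 difference between Klf6-deleted and Lyz2cre libraries for each gene without TNF (blue) and with TNF (purple); circles with standard error bars are on the deposited scale and open diamonds are scaled to total reads. Stat2 lies at 1.07 without and -2.40 with TNF, while Stat6 lies within 0.08 of 0 on the deposited scale; Cish was too low to be tested with TNF.

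Socs3, which binds Janus kinases and the gp130 receptor chain, was at 169, 190.1 and 195 in untreated Lyz2cre and at 309, 334 and 473 in untreated Klf6-deleted libraries. Klf6-deleted replicate 3 is the highest, and all 3 are above the Lyz2cre libraries (1.98-fold, log2 change 0.99, SE 0.131, adjusted p = 3.6e-06). With TNF Socs3 was at 3227, 2712 and 3114 in Lyz2cre and at 1257, 1203 and 1164.5 in Klf6-deleted libraries. Here all Klf6-deleted libraries are lower, by 2.49-fold (log2 change -1.32, SE 0.0630, adjusted p = 2.7e-11). The TNF to untreated ratio was 16.4 in Lyz2cre and 3.25 in Klf6-deleted cells, and the interaction was -2.30 (SE 0.159, adjusted p = 3.0e-10). STAT3 is known as one of the factors that induce Socs3, and its activity was not measured here. The read ratio of Socs3 to Stat3 within a library was 0.0395 ± 0.00268 in untreated Lyz2cre and 0.0862 ± 0.0112 in untreated Klf6-deleted cells. With TNF it was 0.680 ± 0.0176 and 0.640 ± 0.0169 (SD, n = 3). The genotypes thus lay further apart in this ratio without TNF than with it, where their ranges (0.667 to 0.700 and 0.622 to 0.656) still did not overlap; the ratios were not tested.

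Socs2, which restrains growth hormone receptor signalling, was low in all groups. It was at 24.1, 32.7 and 23.0 in untreated Lyz2cre and at 76.7, 70.8 and 90.1 in untreated Klf6-deleted libraries. The Klf6-deleted libraries were 2.93-fold higher (log2 change 1.55, SE 0.231, adjusted p = 1.4e-05), on 274 against 70 reads, a ratio of 3.03 with an exact 95% counting interval of 2.32 to 3.99. With TNF it was at 46.7, 21.6 and 29.8 in Lyz2cre and at 13.1, 9.09 and 11.7 in Klf6-deleted libraries. All Klf6-deleted libraries were lower (log2 change -1.40, SE 0.366, adjusted p = 0.00377), on 36 against 94 reads. Socs2 passed the filter of 1 CPM in 3 libraries here only through the Lyz2cre libraries (1.07 to 2.25 CPM, against 0.553 to 0.796), and leaving out any 1 of them removed it from the test; with no filter the adjusted p was 0.00834. The TNF to untreated ratio was 1.23 in Lyz2cre cells, whose ranges overlap, and 0.142 in Klf6-deleted cells, where they do not. The interaction was -2.95 (SE 0.420, adjusted p = 7.9e-06).

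Cish, whose product masks STAT5 docking sites on receptors, was nearly absent except in untreated Klf6-deleted cells. The untreated Lyz2cre libraries held 0, 2 and 1 reads and the untreated Klf6-deleted libraries 35, 25 and 24. The ratio of normalized reads was 21.6, with an exact 95% counting interval of 7.16 to 107, and the fitted log2 change was 3.71 (SE 0.615, adjusted p = 4.7e-05). Cish passed the filter of 1 CPM in 3 libraries only through the Klf6-deleted libraries (1.03 to 1.53 CPM, against 0 to 0.116), and leaving out any 1 of them removed it from the test; with no filter the adjusted p was 1.3e-05. With TNF there were 5, 4 and 4 reads in Lyz2cre and 5, 7 and 8 in Klf6-deleted libraries. These ranges overlap, the ratio was 1.37 (0.648 to 3.00), and Cish was under the filter, so it was not tested there; with no filter the log2 change was 0.37 (adjusted p = 0.653). The interaction was -3.34 (SE 0.752, adjusted p = 0.00106). There too Cish passed the filter only through the untreated Klf6-deleted libraries, and with no filter the adjusted p was 0.000943. Intervals cover counting error only, since reads carry no molecular identifiers. The genes most like Cish over the 12 libraries were Mmp2 (r = 0.978), Rgs1 (0.973) and Fbn1 (0.972), of which Fbn1 is on the stromal marker list; the stromal sum was 239 to 283 CPM in untreated Lyz2cre and 4206 to 4472 in untreated Klf6-deleted libraries, the endothelial and B cell sums were higher in the latter too, and their part in the rise of Cish, Socs2, Socs3 and Stat2 was not tested.

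Per length of transcript, Stat6 was the most abundant member in 3 of the 4 groups, at 70.6 ± 1.61 RPKM (reads per kilobase of exon, scaled to library depth) in untreated Lyz2cre, 73.3 ± 0.959 in untreated Klf6-deleted and 81.6 ± 0.306 in TNF-treated Klf6-deleted cells. In TNF-treated Lyz2cre cells Stat2 led with 135 ± 10.9, followed by Stat6 with 61.6 ± 1.63 and Socs3 with 50.5 ± 3.84. Untreated Lyz2cre cells went on from Stat6 with Stat3 (23.6 ± 0.447), Stat2 (17.8 ± 0.710), Stat5b (14.7 ± 0.338), Stat5a (4.40 ± 0.520), Socs3 (3.07 ± 0.224), Stat4 (0.820 ± 0.160), Socs2 (0.134 ± 0.0260) and Cish (0.00875 ± 0.00902). In untreated Klf6-deleted cells Stat2 (40.9 ± 1.21) stood above Stat3 (23.7 ± 2.45) and Socs3 (6.79 ± 1.60) above Stat5a (5.46 ± 0.163), and the rest kept that order. With TNF the order after the first places was Stat3, Stat5b, Stat5a, Stat4, Socs2 and Cish in both genotypes, with Socs3 just above Stat3. In TNF-treated Klf6-deleted cells Stat2 was at 32.0 ± 1.02, Socs3 at 25.4 ± 0.992, Stat3 at 12.1 ± 0.165 and Stat5b at 10.1 ± 0.132. Neighbours in these orders overlapped in range for Stat4 and Socs2 in TNF-treated Lyz2cre cells and for Socs2 and Cish in TNF-treated Klf6-deleted cells, and for no other pair.

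Within each library the 6 STATs can be set against each other without regard to scaling. Stat2 made up 13.5% ± 0.434 of their summed reads per kilobase in untreated Lyz2cre and 25.7% ± 1.02 in untreated Klf6-deleted cells, and 58.0% ± 1.76 and 22.6% ± 0.577 with TNF (SD, n = 3). Stat6 made up 53.5% ± 0.689 and 46.1% ± 0.652 untreated, and 26.6% ± 1.30 and 57.7% ± 0.348 with TNF. So among these 6 alone, the transcripts of TNF-treated Lyz2cre cells were mostly Stat2, and those of the other 3 groups held more Stat6 than any other. Stat3 made up 17.9%, 14.9%, 9.72% and 8.53% in untreated Lyz2cre, untreated Klf6-deleted, TNF-treated Lyz2cre and TNF-treated Klf6-deleted cells, and Stat4 under 1% in every library.

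**Figure D3:**
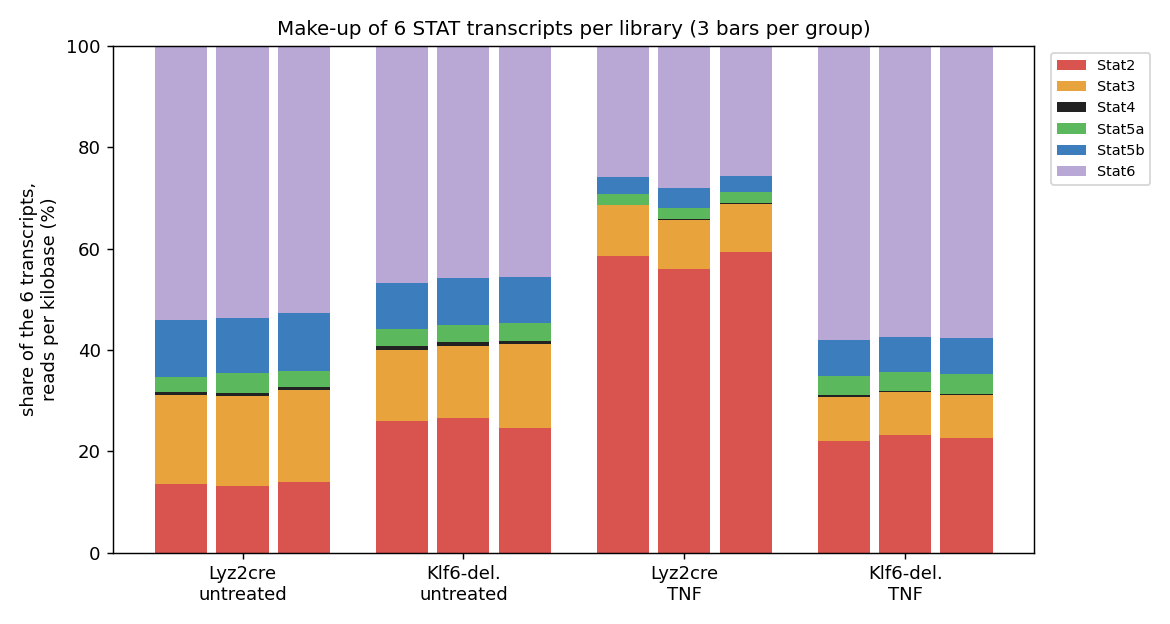
Share of each of 6 STAT transcripts in their summed reads per kilobase (vertical axis, percent), 1 bar per library and 3 bars per group. Stat2 takes 56.0 to 59.3% in TNF-treated Lyz2cre libraries and 22.0 to 26.7% in Klf6-deleted libraries of either condition.

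The pathway lists here and below are read beside all genes tested, of which 29.3% were called lower and 27.6% higher untreated. With TNF these shares were 30.8% and 26.5%. Upstream of the STATs, 3 of the 4 Janus kinase genes passed the test as lower with the deletion in each condition. They were Jak1, Jak3 and Tyk2 untreated, and Jak2, Jak3 and Tyk2 with TNF. Untreated, the median log2 change of the 4 kinases was -0.13, against -0.01 for all genes. It turned to 0.00074 when scaled to total reads, with 1 kinase lower and 1 higher. Tyk2, the kinase of the interferon and IL-12 receptors, was lowest, at 1720 ± 55.8 against 2086 ± 39.1 (adjusted p = 2.3e-05). With TNF the median was -0.68, and -0.35 when scaled to total reads, where the same count of 3 was lower and Jak1 was higher. Jak2, which serves the receptors for GM-CSF and growth hormone, was at 3292 ± 98.8 in Klf6-deleted against 10201 ± 565 in Lyz2cre cells (log2 change -1.63, adjusted p = 4.7e-14), and Tyk2 at 3210 ± 65.5 against 5721 ± 528.

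Of 21 cytokine ligands of the pathway, 9 could be tested untreated (3 higher, 5 lower) and 10 with TNF (3 higher, 7 lower, median -0.93). With TNF the lower ones included Il10 (7.79 ± 1.17 against 161 ± 29.8), which signals through STAT3, Il27 (42.4 ± 5.12 against 396 ± 68.7), Il15 (313 ± 11.8 against 3744 ± 302), which signals through STAT5, and the interferon Ifnb1 (0.614 ± 0.532 against 26.1 ± 2.42). Il10 and Ifnb1 passed the filter there only through the Lyz2cre libraries, so their calls add no weight to the count. Of those higher with TNF, Lif (50.5 ± 8.27 against 15.9 ± 7.11) and Clcf1 (37.7 ± 5.46 against 14.6 ± 5.32) did not reach the filter through the Lyz2cre libraries alone. Their calls add no weight either. Untreated, Il7 (49.2 ± 8.87 against 6.18 ± 4.40) and Clcf1 (154 ± 6.59 against 35.9 ± 9.71), of the IL-6 family, were higher, and Il4 (80.3 ± 4.75 against 177 ± 7.14), the STAT6 cytokine, was lower. Il7 passed the filter there only through the Klf6-deleted libraries, so its call adds no weight either. Of 32 receptor chains, 29 were tested untreated (9 higher, 18 lower, median -0.33) and 25 with TNF (5 higher, 17 lower, median -0.30, which turned to 0.03 with 9 higher and 11 lower when scaled to total reads). The highest untreated were Lepr, the leptin receptor (61.6 ± 2.41 against 3.36 ± 0.979), Osmr, the oncostatin M receptor (335 ± 20.3 against 38.8 ± 4.93), Il12rb1 (106.5 ± 13.1 against 17.6 ± 6.17) and Ghr, the growth hormone receptor (204 ± 15.0 against 33.3 ± 2.65). They stood higher in the libraries with high stromal markers, whose part was not tested. Lepr and Il2rb (24.9 ± 3.13 against 12.8 ± 3.34) passed the filter untreated only through the Klf6-deleted libraries. Osmr did so with TNF (33.1 ± 14.3 against 1.99 ± 3.45), where it was called higher. Il12rb1 did not reach the filter untreated through the Lyz2cre libraries alone. The calls of these 4 genes in those conditions add no weight to the counts. With TNF Il15ra was lower (177 ± 10.9 against 1931 ± 292) and Il7r higher (4373 ± 189 against 1900 ± 144).

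Other brakes on the pathway (16 phosphatases, PIAS and SOCS proteins and adaptors) were 4 higher and 9 lower untreated (median -0.17, or 6 higher and 6 lower with a median of -0.04 when scaled to total reads) and 3 higher and 7 lower with TNF (median -0.11, which turned to 0.22 with 10 higher and 1 lower when scaled to total reads). Usp18, which shields the interferon receptor from its kinase and is also an interferon target, moved like Stat2: 514 ± 13.1 against 402 ± 46.5 untreated and 860.5 ± 84.3 against 9021 ± 1246 with TNF (log2 change 0.36 and -3.38, adjusted p = 0.00124 and 8.1e-15). The phosphatase gene Ptpn1 was higher with TNF, at 4374 ± 104 against 2856 ± 60.2, and lower without it. Untreated, the adaptor gene Sh2b3 was at 2830 ± 80.6 against 4173 ± 25.5 and Ptpn6, the phosphatase SHP-1, at 4648 ± 55.4 against 6251 ± 60.0.

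Downstream, lists of genes known as targets of each STAT were counted. Of all genes tested, 27.6% were called higher and 29.3% lower untreated, and 26.5% and 30.8% with TNF. Of 20 interferon targets that STAT2 serves, 17 were higher and 0 lower untreated by limma (median 0.58), also at an unadjusted p under 0.05, and 0 were higher and 20 lower with TNF (median -3.54); the same counts came from scaling to total reads, from TMM and from edgeR. Ifi44 was at 570 ± 34.0 against 189 ± 24.1 untreated and at 464 ± 45.0 against 7355 ± 614 with TNF. The chemokine gene Cxcl10 did not pass the test untreated (111 ± 24.8 against 121 ± 14.8) and had the lowest change of the list with TNF (547 ± 47.2 against 24878 ± 3907). In both conditions the targets called went the way of Stat2 itself.

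Of 10 STAT3 targets, 2 were higher and 5 lower untreated (median -0.27) and 1 was higher and 8 lower with TNF (median -0.63). Il1rn, which encodes the IL-1 receptor antagonist, was at 1474 ± 113 against 341 ± 56.4 untreated and at 1401 ± 88.6 against 7349 ± 598 with TNF. Like Socs3 it was higher without and lower with TNF, and Myc did the same (362 ± 18.6 against 199.5 ± 8.99, and 111 ± 16.4 against 204 ± 29.2). Etv3, a repressor induced by IL-10, was lower in both (5614 ± 97.9 against 7183 ± 204, and 4157 ± 84.0 against 7304 ± 211).

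Of 7 STAT5 targets tested, 5 were higher and 2 lower untreated (median 0.29) and 2 were higher and 4 lower with TNF (median -0.49, or 3 higher and 3 lower with a median of -0.16 when scaled to total reads). Ccnd2, encoding cyclin D2, was at 664 ± 42.3 against 94.9 ± 21.1 untreated and at 78.2 ± 10.6 against 355 ± 38.4 with TNF. The kinase gene Pim1 was at 1733 ± 63.2 against 1211 ± 16.8 untreated and at 2291 ± 69.5 against 4887 ± 410 with TNF. Both were higher without and lower with TNF, as Socs2 was, and Osm ran the other way (144 ± 31.3 against 217 ± 20.4, and 57.4 ± 17.6 against 21.2 ± 2.64).

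Of 10 STAT6 targets tested, 4 were higher and 5 lower untreated (median -0.02, which turned to 0.11 when scaled to total reads) and 4 were higher and 4 lower with TNF (median 0.04). Ccl22, higher untreated (25.1 ± 8.53 against 5.38 ± 3.14), passed the filter there only through the Klf6-deleted libraries. Ccl24, lower with TNF (5.97 ± 3.31 against 56.2 ± 19.5), passed only through the Lyz2cre libraries. These calls add no weight to the counts. Arg1 (arginase) was at 2791 ± 527 against 28.6 ± 3.89 untreated and at 1144 ± 21.7 against 113 ± 12.8 with TNF, while the mannose receptor Mrc1 was at 8241 ± 1140 against 27307 ± 253 untreated. So the list did not move together. Of the 7 genes of the STAT4 and IL-12 axis, 3 were tested untreated (2 higher, Il12rb1 and Il18rap) and 2 with TNF (Furin lower, at 4168 ± 183 against 5063 ± 62.0, and not called when scaled to total reads), and the median of the TNF changes of -0.22 turned to 0.10 on that scale. Il12rb1 did not reach the filter untreated through the Lyz2cre libraries alone, so its call adds no weight. The lists share Usp18, Osm, Il4ra, Il12rb1, Il12rb2 and Ifng, so they are not separate counts.

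**Figure D4:**
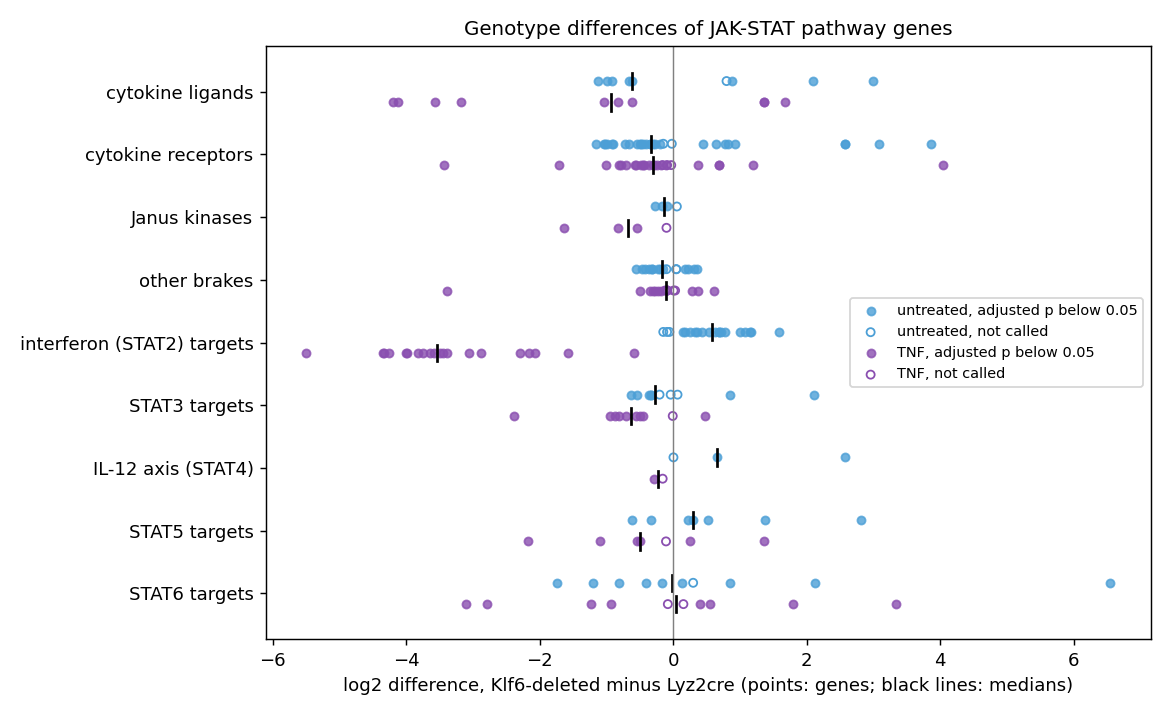
Log2 difference between Klf6-deleted and Lyz2cre libraries of the genes on 9 lists, without TNF (blue) and with TNF (purple); filled points have an adjusted p below 0.05 and black lines are medians. The interferon targets have medians of 0.58 and -3.54.

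Over the 12 libraries, the genes whose log2 CPM followed each member most closely were ranked among 11855 genes, as a description of libraries that share 4 groups. For Stat2 they included Nlrc5 (r = 0.997), the activator of class I presentation genes, and Mov10 (0.996), an antiviral helicase. For Stat3 they were Snx2 (0.984), Milr1 (0.980) and Taok3 (0.978), and for Socs3 Abtb2 (0.995), Msr1 (0.995), a scavenger receptor, and Bfar (0.994). For Stat5b they were Aatk (0.995), Sgsh (0.995) and Fgd4 (0.995), and for Stat5a Trdmt1 (0.936), Ppp2r1a (0.914) and Rbm17 (0.885), the loosest likeness of the 9. For Stat6 they were Tbcel (0.984), Abcf3 (0.984) and Nr4a1 (0.983), for Stat4 Rps24 (0.992), Amot (0.991) and Rpl26 (0.989), and for Socs2 Gbp8 (0.958), Tnfsf8 (0.942) and Ier5 (0.940).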

How the data were processed

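Macrophage RNA (High Pure kit, Roche; 150 ng) went into TruSeq Stranded Total RNA libraries with Ribo-Zero Gold, per the labels' protocols. Cufflinks and the builds GRCm39 and mm10 are named without version or role, per the submitters' processing notes; the counting tool is not given in the sources used here, nor is its use of strand. Per gene and library, the authors deposited normalized signal in 2 tables (22896 and 21437 genes), each library's values being whole multiples of 1 step (largest deviation 5.2e-05 reads, tolerance 0.001, 100% of values whole), so reads were recovered by division; of the value columns, 0 were left unused. The reciprocals of the steps equal median-of-ratios size factors within each table. Symbols matched 22867 and 21411 identifiers, lengths and positions came from GENCODE vM21 (GRCm38), and promoters from RefSeq. Depth was 16.9 to 23.4 M reads per library.

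Within each table limma with a trend compared the genotypes on log2(value + 1), for genes that reached 1 CPM in 3 or more libraries, adjusted by Benjamini-Hochberg over all genes and called at an adjusted p below 0.05. The filter passed all 9 members untreated and 8 with TNF. The interaction is a contrast over the 4 groups for genes in both tables. Ratios across tables were not tested. Alternatives were DESeq2, edgeR's quasi-likelihood test with TMM, a pseudocount of 0.5, other filters, scaling to CPM or by TMM, the replicate number as a block, and leaving out each library. On the recovered reads edgeR called 7219, 6707 and 6394 genes untreated, with TNF and for the interaction, against 7230, 6711 and 6392 by limma. The fits were tested on simulated data. Named genes are the members, Klf6, up to 4 genes per pathway list with the largest called changes in each comparison, and up to 3 genes most like each member, of which some are left out of the text. Members and lists were chosen with earlier results of these data known. Some genes are not reported here. Tests ran in limma 3.58.1, DESeq2 1.42.0 and edgeR 4.0.16 under R 4.3.3, and the rest in Python 3.11.15 with scipy 1.17.1, pandas 2.3.3, matplotlib 3.10.9 and numpy 2.4.6.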

Additional observations from a re-analysis of the deposited data

Results flagged for a closer look

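For 8 of the 9 members the genotype difference with TNF differed from that without TNF by limma's contrast over the 4 groups. On the log2 scale, the difference with TNF minus that without was -3.46 for Stat2 (adjusted p = 2.0e-17), -3.34 for Cish (0.00106), -2.95 for Socs2 (7.9e-06), -2.30 for Socs3 (3.0e-10), -1.10 for Stat3 (2.2e-09) and -0.47 for Stat5a (0.000979). It was 0.16 for Stat6 (0.0125) and 0.18 for Stat5b (0.0399). Of all genes 48.9% were called in this contrast. Cish passed its filter only through the untreated Klf6-deleted libraries, so its call adds no weight to the count. For Stat2, Socs2 and Socs3 all Klf6-deleted libraries were above all Lyz2cre libraries untreated and below them with TNF.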

How the results depend on the processing

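Over 26 results of single members, 352 of 401 alternatives kept direction and side of the threshold, 37 lost a call, 6 gained a call and 6 changed sign. Stat2, Socs2, Socs3 and Cish untreated, Stat2, Stat3, Socs2 and Socs3 with TNF, and the interactions of Stat2, Stat3, Stat5a, Socs2, Socs3 and Cish were called under every alternative that gave a value; Cish gave 10 of 14 untreated and 16 of 20 for the interaction, and Socs2 gave 10 of 14 with TNF, 13 of 14 untreated and 19 of 20 for the interaction. The filter of 5 CPM removed both, leaving out any 1 Klf6-deleted untreated library removed Cish, and leaving out any 1 Lyz2cre library removed Socs2 with TNF. Cish had a larger interaction than Stat2 by DESeq2 (-4.01 against -3.50), edgeR (-3.87 against -3.50), a pseudocount of 0.5 (-3.82 against -3.46) and without Lyz2cre untreated replicate 2 or Klf6-deleted TNF replicate 3. The members called untreated numbered 5 with a filter of 5 CPM in 3 libraries, which tests fewer genes, and 4 to 7 when a library was left out, with 5 without Lyz2cre replicate 1 or 3 and 4 without Klf6-deleted replicate 1 or 2.

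Scaling to total reads moved the median log2 change of all genes from -0.01 to 0.12 untreated, from -0.01 to 0.32 with TNF and from 0.01 to 0.20 for the interaction, and the share of higher among called genes from 48.5% to 68.0%, from 46.2% to 80.4% and from 49.2% to 69.2%. On that scale the untreated change was 0.0035 for Stat3 and 0.054 for Stat6, the TNF change 0.039 for Stat5a, and Stat4 with TNF was called (0.91, adjusted p = 0.0232). Leaving out libraries gave -0.022 to 0.054 for Stat5b with TNF and -0.12 to 0.38 for the interaction of Stat4. The log2 ratio of TNF-treated to untreated cells changed sign for Stat3 in Lyz2cre cells (0.25 by TMM over 12 libraries), for Stat5a in Klf6-deleted cells (0.027 by TMM) and for Stat6 (0.12 by TMM in Lyz2cre, 0.15 by CPM and 0.24 by TMM in Klf6-deleted cells). Same-numbered untreated libraries of the genotypes correlated (deviations from group means) at 0.152, -0.0378 and 0.158, and differently numbered ones at -0.23 to 0.114. With TNF the same-numbered ones correlated at -0.0209, -0.0123 and -0.0295, and the others at -0.00153 to 0.0224. These values do not settle whether libraries were paired. No pairing is stated, so the replicate number served as a block only among the alternatives. The replicate block called 7284, 6473 and 6201 genes untreated, with TNF and for the interaction, and among members it removed the interaction of Stat5b (0.18, adjusted p = 0.0684). Depth limits Cish, Socs2 and Stat4, which rest on few reads.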
